A study of Mus musculus with 6 samples.

Results

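DNA methylation was described at 4 genes of the antioxidant response in mouse colon epithelium: Nfe2l2, which encodes the transcription factor Nrf2, its inhibitor Keap1, and the target genes Hmox1 and Nqo1. The members were the captured regions that overlapped a window of mm9, the genome build of the files, around each gene. Each window took the gene and about 3 kb on either side. In all, 42 of the 209687 regions were members, 18 at Nfe2l2, 13 at Keap1, 2 at Hmox1 and 9 at Nqo1. Of these, 39 had a value in each of the 6 libraries and were tested, 17 at Nfe2l2, 13 at Keap1, 2 at Hmox1 and 7 at Nqo1. The choice of regions used their position and no measured level.

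All mice were C57BL/6, an inbred laboratory strain, aged 18 weeks, and there were 3 groups with 2 libraries each. The first group received azoxymethane (AOM), a carcinogen that acts on the colon, and dextran sulfate sodium (DSS), which injures and inflames the colon lining, together with curcumin, a polyphenol from turmeric. The second received AOM and DSS without curcumin (AOM/DSS), and the third is labelled control. Doses, schedules and sex were not given in the labels. Before the mucosa was scraped, the proximal segment was cut away together with tumors of the right colon, so the values belong to the mucosa that was left. The scrapings are labelled epithelial, which was not checked against marker genes, since no annotation of mm9 was used here. A bulk scraping mixes cell types, and a change in the makeup of the cells cannot be told apart from a change of methylation within a cell type. The labels do not tie the 2 libraries of a group to different mice, and the spread that the p-values rest on may therefore be technical.

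Nrf2 is made continuously and is held in the cytoplasm by Keap1, which passes it to a ubiquitin ligase for destruction. Oxidants and electrophiles modify cysteines of Keap1, Nrf2 then escapes to the nucleus and, with a small Maf protein, binds antioxidant response elements in the DNA near its target genes. Among the targets, Hmox1 encodes haem oxygenase 1, which breaks down haem, and Nqo1 encodes a quinone reductase that keeps quinones out of redox cycling. Methylation of CpGs in a CpG-rich promoter usually goes with a silent gene, and methylation of the Nfe2l2 promoter has been described in mouse prostate tumor cells, where curcumin was among the agents studied. The comparisons ask whether the promoters or bodies of these 4 genes carried such a mark after AOM/DSS, and whether it differed with curcumin.

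The promoters are shown because their CpGs are the ones such a mark would sit on. The 300 bases run from 250 before to 50 after the annotated start on the gene's own strand, from RefSeq in build GRCm38.p6, which is not the build of the methylation files, so no measured region was placed on them. RefSeq's table held 3 of the 4 genes; Hmox1 was not matched. Capitals mark each CpG.
Nfe2l2 (chr2:75704614-75704913, minus strand): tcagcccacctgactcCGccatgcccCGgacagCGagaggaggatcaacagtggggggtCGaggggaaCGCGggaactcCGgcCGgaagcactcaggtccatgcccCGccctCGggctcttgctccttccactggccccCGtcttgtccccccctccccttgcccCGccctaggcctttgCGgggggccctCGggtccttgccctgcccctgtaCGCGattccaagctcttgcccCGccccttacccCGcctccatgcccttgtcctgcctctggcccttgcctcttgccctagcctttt
Keap1 (chr9:21239283-21239582, minus strand): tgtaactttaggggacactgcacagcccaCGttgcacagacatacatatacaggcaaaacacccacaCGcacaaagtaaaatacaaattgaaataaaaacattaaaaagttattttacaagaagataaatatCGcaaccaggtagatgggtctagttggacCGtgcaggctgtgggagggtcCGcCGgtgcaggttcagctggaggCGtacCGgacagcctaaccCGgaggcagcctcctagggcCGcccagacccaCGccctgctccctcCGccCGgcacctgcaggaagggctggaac
Nqo1 (chr8:107403156-107403455, minus strand): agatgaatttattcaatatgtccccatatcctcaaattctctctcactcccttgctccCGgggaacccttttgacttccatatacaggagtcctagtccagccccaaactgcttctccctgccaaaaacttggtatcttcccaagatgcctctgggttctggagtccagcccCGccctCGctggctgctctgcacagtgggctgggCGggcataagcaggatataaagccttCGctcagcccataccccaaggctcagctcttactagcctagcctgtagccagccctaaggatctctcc

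The Nfe2l2 promoter held 18 CpGs at 68.7% G and C, the Keap1 promoter 13 CpGs at 53.3%, and the Nqo1 promoter 5 CpGs at 53.7%. The median over 32851 mouse promoters of this length was 7 CpGs, and 29.7% of them had at least as many as Nfe2l2 and 37.9% at least as many as Keap1. The core of the antioxidant response element, TGACNNNGC on either strand, occurred once at Nfe2l2, as TGACTCCGC starting 240 bases before the start, where its CG is one of the 18 CpGs. It occurred in none of the Keap1 and Nqo1 sequences and in 12.4% of all promoters. The core of the GC box, CCGCCC on either strand, was present at Nfe2l2 in 3 copies, at Keap1 in 2 and at Nqo1 in 2, and in 35.7% of all promoters. These are matches of letters only, and a window without a match says nothing about sites elsewhere.

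Levels are given as the percentage of a region's calls that were methylated, where a call is the reading of 1 CpG in 1 read after bisulfite treatment. A region held at least 20 calls wherever it had a value. The libraries held 24682973 to 30727568 calls, and 5269 to 6598 of them lay in the 42 member regions. The median tested member had 121 calls and the median of all 179922 tested regions 107. Intervals below are 95% Clopper-Pearson intervals. They cover counting error only and are too narrow where several calls came from 1 read or copied molecule, and no source used here mentions molecular identifiers. Where 0 calls were methylated, the level that the count allows is given below as 3 divided by the calls, in percent. This limit is lower than the upper bound of the 95% interval.

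Regions on the promoter side were mostly low in methylation in every group, and body regions, captured at Nfe2l2, Keap1 and Nqo1 but not at Hmox1, ranged from under 5%, 4 of 20, to over 90%, also 4 of 20. The median tested member stood at 6.57% as a mean over the 6 libraries, against 33.9% for the median of all tested regions. Of the 39 members, 19 (48.7%) were under 5%, against 29.3% of all tested regions, and 4 (10.3%) were over 90%, against 11.6%. Regions were divided by position and CpG density alone. The promoter side was the first 5 kb of a window. If both flanks were equal, the gene would start 3.20 to 3.51 kb into its window. The promoter side would then also hold the first part of the gene. On the promoter side a region with at least 5 CpGs and at least 5 CpGs per 100 bases was called an island region and any other a flank region. All other regions were called body, which therefore also held the flank past the gene's 3′ end. There were 7 island, 12 flank and 20 body regions, and their median levels were 1.42%, 2.07% and 32.8%. Of the 7 island regions 6 were under 5% (85.7%). Among all 46066 tested regions of such density, at any position and so not only at promoters, 62.1% were.

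**Figure D1:**
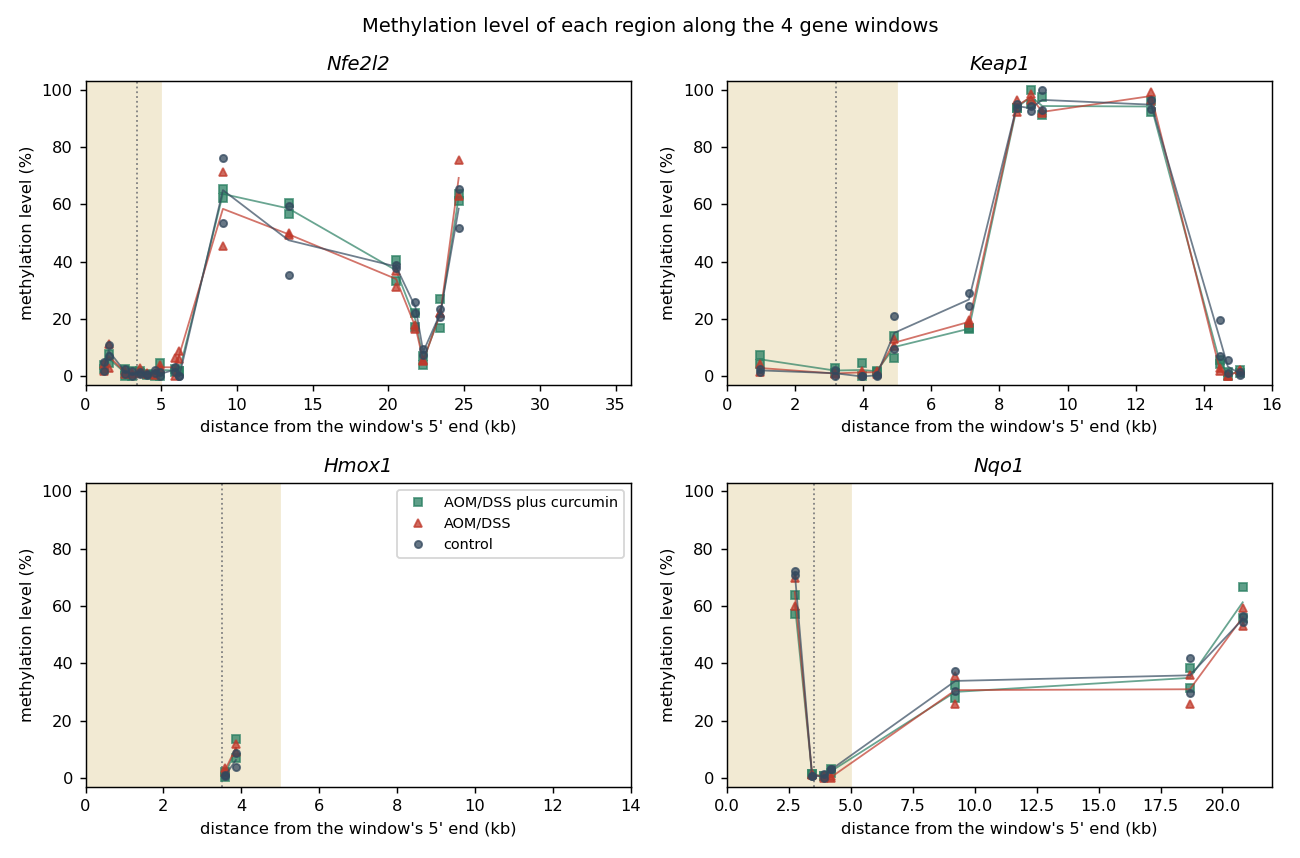
Methylation level (percent, vertical axis) of each tested region against its distance from the 5′ end of the gene's window (kb, horizontal axis). Each point is 1 library and lines join group means for AOM/DSS plus curcumin (squares), AOM/DSS (triangles) and control (circles); the shaded 5 kb is the promoter side, and the dotted line is where the gene would start if both flanks were equal. At Nfe2l2, Keap1 and Nqo1 a stretch near 0% gave way to higher levels further in, and the lines of the 3 groups ran close together along all 4 windows.

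Nfe2l2, the gene of Nrf2 itself, had a long unmethylated stretch on its promoter side. From 2.60 to 4.55 kb into the window, 5 neighbouring tested regions with 132 CpGs, picked out after their values were seen, never exceeded 2.86% in any library. RefSeq places a long noncoding RNA gene, E030042O20Rik, 2.22 kb from Nfe2l2 on this side in GRCm38.p6, and which of these regions lie nearer to it was not determined. Among them the 3 island regions held 98 CpGs and 843 to 1209 calls per library. Together they stood at 1.25% and 0.900% in the AOM/DSS plus curcumin libraries, 1.16% and 1.68% in the AOM/DSS libraries, and 1.30% and 0.593% in the control libraries. The 3 groups overlapped, and the highest upper bound of any library's interval was 2.58%. The AOM/DSS plus curcumin libraries averaged 1.07% ± 0.247, the AOM/DSS libraries 1.42% ± 0.367 and the control libraries 0.946% ± 0.499 (SD, n = 2 each). The difference AOM/DSS minus control was 0.471 points, with p = 0.667 in a two-sided exact permutation test, and curcumin minus AOM/DSS was -0.343 points, with an exact p of 0.667. With 2 libraries against 2 this test cannot give less than 0.33, so no gene-level difference could pass 0.05.

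The deepest of the 3 island regions, chr2:75541709-75542142 with 39 CpGs, also had the lowest level at this gene. It stood at 0.959% and 0.673% in the AOM/DSS plus curcumin libraries, 1.17% and 1.02% in the AOM/DSS libraries, and 0.859% and 0.490% in the control libraries, from 408 to 597 calls each. Both AOM/DSS libraries lay above the other 4. Their mean exceeded that of control by 0.42 points, and the adjusted p was 0.91 in edgeR's quasi-likelihood test over all tested regions. Next to it, the flank region chr2:75541226-75541665 with 16 CpGs had 0% and 0.364% in the AOM/DSS plus curcumin libraries, 1.2% and 0.426% in the AOM/DSS libraries, and 1.37% and 2.20% in the control libraries. Here the control libraries were highest and the curcumin libraries lowest, with no overlap in any pair of groups, and the 0% allows up to 1.21%. The methylated calls were few, 0 and 1 with curcumin, 3 and 1 in AOM/DSS, and 4 and 6 in control. The closest curcumin and AOM/DSS libraries had 1 of 275 and 1 of 235 calls methylated, so only their depth set them apart. Curcumin minus control was -1.60 points, with an unadjusted p of 0.0117 and an adjusted p of 1 in edgeR.

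Just past the promoter side of Nfe2l2, the region chr2:75539741-75539883 with 3 CpGs had the smallest p-value of all members for AOM/DSS against control. Its level was 1.96% and 1.75% in the AOM/DSS plus curcumin libraries, 8.93% and 6% in the AOM/DSS libraries, and 0% in both control libraries. Only the AOM/DSS libraries had more than 1 methylated call, 5 of 56 and 3 of 50, while the control counts of 0 of 46 and 0 of 40 allow levels of up to 6.52% and 7.5%. The AOM/DSS mean exceeded the control mean by 7.46 points, with an unadjusted p of 0.00851 and an adjusted p of 0.693 in edgeR. Curcumin minus AOM/DSS was -5.61 points, with an unadjusted p of 0.0829 and an adjusted p of 0.949. The first difference kept an unadjusted p under 0.05 with any 1 of the 6 libraries left out, at most 0.0470, and the region had fewer than 50 calls in some libraries.

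The body of Nfe2l2 was methylated unevenly. The means of its 9 tested regions over the 6 libraries ran from 2.57% to 63.4%. A region of 5 CpGs deep in the body, chr2:75523619-75523787, named after its values were seen, stood at only 4.03% to 9.73%, and its neighbours on either side averaged 20.3% and 22.1%. Over the whole body the level was 31.1% and 29.5% in the AOM/DSS plus curcumin libraries, 28.8% and 36.5% in the AOM/DSS libraries, and 32.2% and 31.9% in the control libraries. The AOM/DSS libraries lay on either side of the other 4. The AOM/DSS minus control difference of 0.572 points turned to -3.29 points without AOM/DSS replicate 1. The most methylated region, chr2:75521142-75521586 with 14 CpGs, had 61.3% and 63.8% in the AOM/DSS plus curcumin libraries, 62.9% and 75.5% in the AOM/DSS libraries, and 65.3% and 51.7% in the control libraries. Its AOM/DSS minus control difference of 10.7 points came with overlapping groups and an adjusted p of 0.829 in edgeR. It grew to 17.0 points without AOM/DSS replicate 0 and to 17.5 points without control replicate 0. Leaving out the other library of either group made it smaller. Without AOM/DSS replicate 1, 62.9% stood against a control mean of 58.5%. Without control replicate 1, an AOM/DSS mean of 69.2% stood against 65.3%.

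Keap1, the inhibitor, had an unmethylated promoter side with 1 edge that was partly methylated. Its 3 island regions held 44 CpGs and 263 to 450 calls per library. Together they stood at 4.56% and 9.78% in the AOM/DSS plus curcumin libraries, 7.67% and 6.22% in the AOM/DSS libraries, and 13.4% and 6.59% in the control libraries. The 3 groups overlapped. The AOM/DSS plus curcumin libraries averaged 7.17% ± 3.69, the AOM/DSS libraries 6.95% ± 1.03 and the control libraries 9.97% ± 4.78 (SD, n = 2 each). Against control, AOM/DSS differed by -3.02 points, with an exact permutation p of 0.667, and the difference became 0.361 points without control replicate 0. Curcumin minus AOM/DSS was 0.225 points, with an exact permutation p of 1.

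This level came largely from the innermost island region, chr9:21041942-21042223 with 16 CpGs. Its centre lay 4.92 kb into the window, and with equal flanks the gene would start at 3.20 kb. This region had 6.34% and 14.2% in the AOM/DSS plus curcumin libraries, 13.0% and 10.6% in the AOM/DSS libraries, and 21.0% and 9.46% in the control libraries, from 142 to 243 calls. The groups overlapped, with 1 curcumin library the lowest and 1 control library the highest of the 6. The AOM/DSS minus control difference of -3.43 points had an adjusted p of 0.92 in edgeR's test. The other 2 island regions, chr9:21043708-21043958 and chr9:21042939-21043117, reached at most 2.86% and 4.55% in any library. They were thinly covered, with 35 to 110 and 44 to 104 calls, and the interval of any 1 library reached up to 14.9% and 15.5%.

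Between the islands of Keap1, the flank region chr9:21042458-21042744 with 8 CpGs was the least methylated region of the gene and among the best covered, with 290 to 400 calls. It stood at 1.67% and 1.97% in the AOM/DSS plus curcumin libraries, 1.03% and 1.84% in the AOM/DSS libraries, and 0.25% and 0.59% in the control libraries. All 4 libraries from mice given AOM and DSS lay above both controls. For AOM/DSS minus control the difference was 1.02 points, with an unadjusted p of 0.0424 and an adjusted p of 0.781, and curcumin minus control was 1.40 points, with an unadjusted p of 0.0144 and an adjusted p of 1 in edgeR. Toward the 5′ end of the window, the region chr9:21045816-21046230 with 13 CpGs had 7.65% and 4.32% in the AOM/DSS plus curcumin libraries, 4.39% and 1.53% in the AOM/DSS libraries, and 1.70% and 2.55% in the control libraries. Curcumin minus control was 3.86 points there, with an unadjusted p of 0.0373 and an adjusted p of 1 in edgeR. On that side of Keap1, RefSeq places S1pr5, a sphingosine phosphate receptor gene, 3.58 kb away in GRCm38.p6.

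The body part of the Keap1 window split into a methylated middle and a 3′ end with low levels. Over all 8 regions it averaged 44.0% and 44.2% in the AOM/DSS plus curcumin libraries, 49.0% and 43.1% in the AOM/DSS libraries, and 44.1% and 43.8% in the control libraries. The 5 regions more than 3 kb from the window's 3′ end, with 40 CpGs, stood at 79.6% and 78.8% with curcumin, 80.3% and 79.4% in AOM/DSS, and 80.1% and 81.7% in control. The most methylated of them, chr9:21037926-21038230 with 12 CpGs, had 100% and 95.1% in the AOM/DSS plus curcumin libraries, 96.2% and 98.6% in the AOM/DSS libraries, and 94.3% and 92.7% in the control libraries, with an adjusted p of 0.871 for AOM/DSS against control in edgeR.

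The 3 regions at the 3′ end of the window were low. They lay 0.939 to 1.54 kb from that end, which is beyond the gene if both flanks of about 3 kb were equal. The largest difference between AOM/DSS and control among all tested members was here, at chr9:21032492-21032580 with 4 CpGs. It had 4.44% and 5.88% in the AOM/DSS plus curcumin libraries, 3.12% and 1.92% in the AOM/DSS libraries, and 19.6% and 7.14% in the control libraries, from 32 to 52 calls. Both controls lay above the other 4 libraries, and control replicate 0 stood apart from replicate 1. The AOM/DSS minus control difference was -10.8 points, a log2 odds ratio of -2.53, with an unadjusted p of 0.0248 and an adjusted p of 0.744 in edgeR. Without control replicate 0 the difference was -4.62 points and the unadjusted p 0.289, and without AOM/DSS replicate 1 the unadjusted p was 0.147. Its neighbour chr9:21032238-21032357 with 6 CpGs, named after its values were seen, had 0% and 1.49% with curcumin, 0% in both AOM/DSS libraries, which allows up to 3.16% and 3.41%, and 1.22% and 5.71% in control. There AOM/DSS against control had an unadjusted p of 0.0161 and an adjusted p of 0.716 in edgeR.

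Hmox1 was covered by 2 neighbouring regions of its promoter side only, with 31 CpGs in all. The rest of its window, called body here, held no captured region. With equal flanks the gene would start 3.51 kb into the window, just before the centres of the 2 regions at 3.59 and 3.86 kb. The denser, chr8:77617467-77617704 with 21 CpGs, had 2.01% and 0.493% in the AOM/DSS plus curcumin libraries, 2.21% and 3.53% in the AOM/DSS libraries, and 1.03% and 0.758% in the control libraries, from 132 to 226 calls. The AOM/DSS libraries lay above the other 4, and the interval of any 1 library reached at most 7.52%. The AOM/DSS plus curcumin libraries averaged 1.25% ± 1.08, the AOM/DSS libraries 2.87% ± 0.931 and the control libraries 0.892% ± 0.190 (SD, n = 2 each). The AOM/DSS mean was above the control mean by 1.98 points, at an unadjusted p of 0.0934 and an adjusted p of 0.824 by edgeR. Curcumin minus AOM/DSS was -1.62 points, with an unadjusted p of 0.147 and an adjusted p of 0.957.

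The second Hmox1 region, chr8:77617738-77617984 with 10 CpGs, was more methylated. It had 13.8% and 7.03% in the AOM/DSS plus curcumin libraries, 9.14% and 12.0% in the AOM/DSS libraries, and 3.92% and 8.73% in the control libraries, from 126 to 204 calls. Both AOM/DSS libraries were above both controls, and the curcumin libraries lay 1 above and 1 below the AOM/DSS pair. Over control, AOM/DSS was higher by 4.27 points, with an unadjusted p of 0.112 and an adjusted p of 0.831 in edgeR. Curcumin minus AOM/DSS was -0.183 points, with an unadjusted p of 0.981 and an adjusted p of 1 in edgeR. Summed over both regions, Hmox1 stood at 8.36% and 3.02% with curcumin, 5.24% and 7.74% in AOM/DSS, and 2.51% and 4.65% in control, where AOM/DSS minus control was 2.91 points at the smallest exact permutation p, 0.33.

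**Figure D2:**
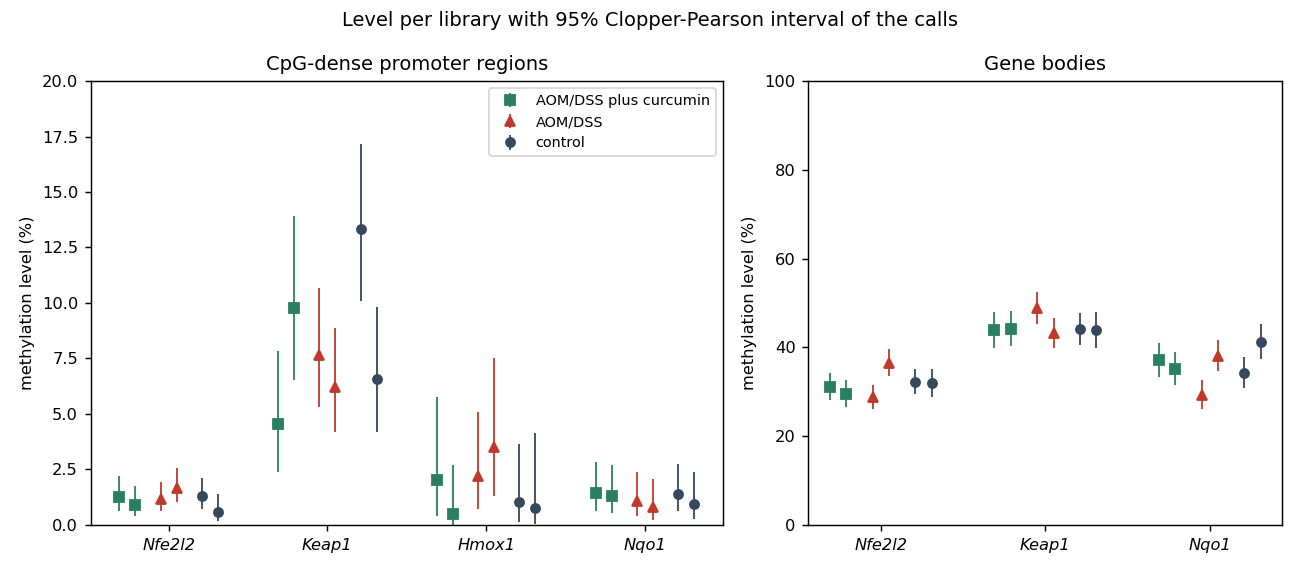
Methylation level (percent) of each library with its 95% Clopper-Pearson interval, for the CpG-dense promoter regions (left, axis to 20%) and the gene bodies (right, axis to 100%). Each point is 1 library, ordered AOM/DSS plus curcumin, AOM/DSS, control; Nqo1 is drawn from its 3 regions with at least 4 CpGs per 100 bases and the other genes from regions with at least 5, and Hmox1 has no body region. As drawn, Nfe2l2, Hmox1 and Nqo1 were at or below 3.53% in every library and Keap1 at 4.56% to 13.4%, but the order depends on the density bound: at 4 CpGs per 100 bases Hmox1 stood at 2.51% to 8.36%, and over the whole promoter side Keap1 stood at 3.37% to 5.74% and Nqo1 at 7.75% to 12.7%.

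At Nqo1, whose promoter printed above has few CpGs, no region of the promoter side reached 5 CpGs per 100 bases. The 3 regions there with at least 4 per 100 bases, a bound chosen after the densities were seen, stood in for an island. With 29 CpGs and 424 to 572 calls per library, they had 1.46% and 1.31% in the AOM/DSS plus curcumin libraries, 1.1% and 0.805% in the AOM/DSS libraries, and 1.40% and 0.943% in the control libraries. The curcumin libraries lay above the AOM/DSS libraries by 0.433 points on average, at the smallest exact permutation p of 0.33, and no library's interval reached above 2.85%. The least methylated of these regions, chr8:109926954-109927182 with 11 CpGs, had 0.641% and 0.840% in the curcumin libraries, 0.709% and 0% in the AOM/DSS libraries, and 1.31% and 0% in the control libraries. The zeros there allow up to 2.48% in the AOM/DSS library and 2.44% in the control library. Next to it, chr8:109926710-109926846 with 6 CpGs had 3.26% and 1.74% in the AOM/DSS plus curcumin libraries, 0% and 0.877% in the AOM/DSS libraries, and 3.05% and 3.08% in the control libraries. The AOM/DSS libraries were the lowest there, and the 0% allows up to 3.12%. The AOM/DSS minus control difference was -2.63 points, with an unadjusted p of 0.0583 and an adjusted p of 0.797, and curcumin minus AOM/DSS was 2.06 points, with adjusted p = 0.951 (edgeR).

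On the outer side of this unmethylated stretch, the Nqo1 region chr8:109928172-109928337 with 4 CpGs was the most methylated tested region of the gene. It had 57.1% and 64.0% in the AOM/DSS plus curcumin libraries, 60% and 69.8% in the AOM/DSS libraries, and 72.4% and 70.9% in the control libraries, from 63 to 100 calls. Both controls lay above the other 4 libraries. Curcumin minus control was -11.1 points, with an unadjusted p of 0.156 and an adjusted p of 1 in edgeR. The difference between AOM/DSS and control was -6.73 points, with an adjusted p of 0.907. The body of Nqo1, 3 regions with 24 CpGs, had 37.1% and 35.2% in the curcumin libraries, 29.4% and 38.1% in the AOM/DSS libraries, and 34.3% and 41.3% in the control libraries, and all 3 groups overlapped.

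**Figure D3:**
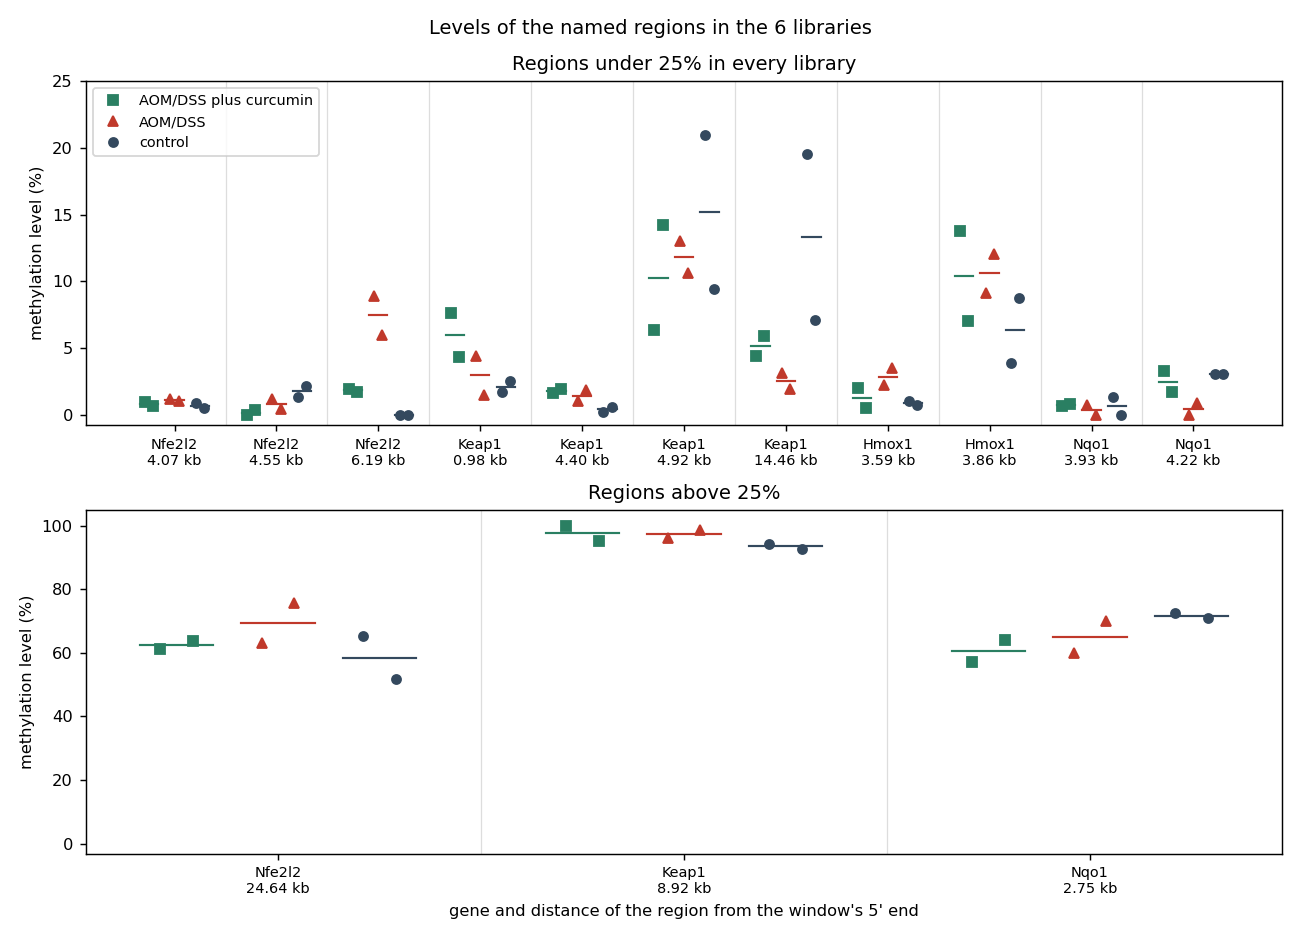
Methylation level (percent, vertical axis) of the 14 regions named by rule, by gene and distance from the 5′ end of the window in kb, with regions under 25% in every library above and the others below. Points are libraries in the order AOM/DSS plus curcumin, AOM/DSS, control, and bars are group means. In the Keap1 region at 14.46 kb the mean of control rested on 1 library at 19.6%, and in the Nfe2l2 region at 6.19 kb both controls were at 0%.

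Across the 4 genes, no member passed the threshold between AOM/DSS and control. By edgeR's quasi-likelihood test 0 of 39 members had an adjusted p under 0.05 with means at least 10 points apart, where 0.00389% of all tested regions did. Without adjustment 4 members had p under 0.05, 5 with limma and 3 with a quasi-binomial model, neither of which called any member after adjustment. In edgeR 6.34% of all tested regions had such a p. No such share is given for limma or the quasi-binomial model. Their counts, here and in the comparisons below, therefore cannot be set against all tested regions. The 4 were the Nfe2l2 region with 3 CpGs just past its promoter side, the least methylated Keap1 region and 2 of the 3 regions at the 3′ end of the Keap1 window. Only chr9:21032492-21032580 also reached 10 points, 1 of 39 against a share of 2.82% over all regions. The smallest adjusted p was 0.693.

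The AOM/DSS mean was higher than the control mean in 19 members (48.7%) and lower in 20 (51.3%), where 45.3% of all tested regions were higher and 54.3% lower, with a median difference of -0.018 points, against -0.264 over all tested regions. By gene it was higher in 2 of 2 regions at Hmox1, in 8 of 17 at Nfe2l2, in 7 of 13 at Keap1 and in 2 of 7 at Nqo1. Both AOM/DSS libraries lay above both controls in 11 members, where 14.8% of all tested regions did so, and below both in 10, where 20.8% did. Of the 7 island regions 3 were of the first kind, 1 each at Nfe2l2, Keap1 and Hmox1, and 0 of the second, with differences of 0.42, 1.46 and 1.98 points. At Keap1 this rested on 1 of 100 and 2 of 104 methylated calls in the AOM/DSS libraries. The control counts of 0 of 70 and 0 of 68 allow up to 4.29% and 4.41%, above both AOM/DSS levels. The share among regions of island density alone was not computed.

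Between curcumin and AOM/DSS alone no member passed the threshold either. In edgeR 0 of 39 members were called, where 0% of all tested regions were, and 0 had an unadjusted p under 0.05 in edgeR, against 5.25% of all tested regions, with 2 in limma and 0 in the quasi-binomial model. The count with p under 0.05 and 10 points was 0 as well, against 2.00% of all. The largest difference was 8.98 points and the smallest adjusted p 0.949. Both curcumin libraries lay above both AOM/DSS libraries in 4 members, where 18.9% of all tested regions did, and below both in 7, where 16.0% did. The curcumin mean was lower than the AOM/DSS mean in 11 of 17 regions at Nfe2l2 and in 2 of 2 at Hmox1, and higher in 8 of 13 at Keap1 and 4 of 7 at Nqo1. Over all tested regions it was lower in 47.7% and higher in 51.9%. The differences had a median of -0.081 points over the members and 0.111 over all tested regions.

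Curcumin against control gave 0 of 39 calls in edgeR, where 0% of all tested regions were called, and 3 members with an unadjusted p under 0.05, where 4.17% of all had one. They were the Nfe2l2 flank region with 16 CpGs, lower with AOM/DSS plus curcumin than in control, and 2 flank regions of Keap1, higher, at -1.60, 3.86 and 1.40 points. None of them reached 10 points with such a p, against 1.46% of all tested regions; limma and the quasi-binomial model each gave 2 members with p under 0.05 and 0 calls. Both curcumin libraries lay above both controls in 5 members, where 14.3% of all tested regions did, and below both in 6, where 17.7% did, and in 0 of the 7 island regions did the groups separate. The median difference was -0.211 points over the members and -0.168 over all tested regions. No group received curcumin without AOM and DSS, so curcumin against control cannot tell curcumin apart from AOM/DSS. Any 2 of the 3 comparisons share the libraries of 1 group, so their values are not independent of each other.

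**Figure D4:**
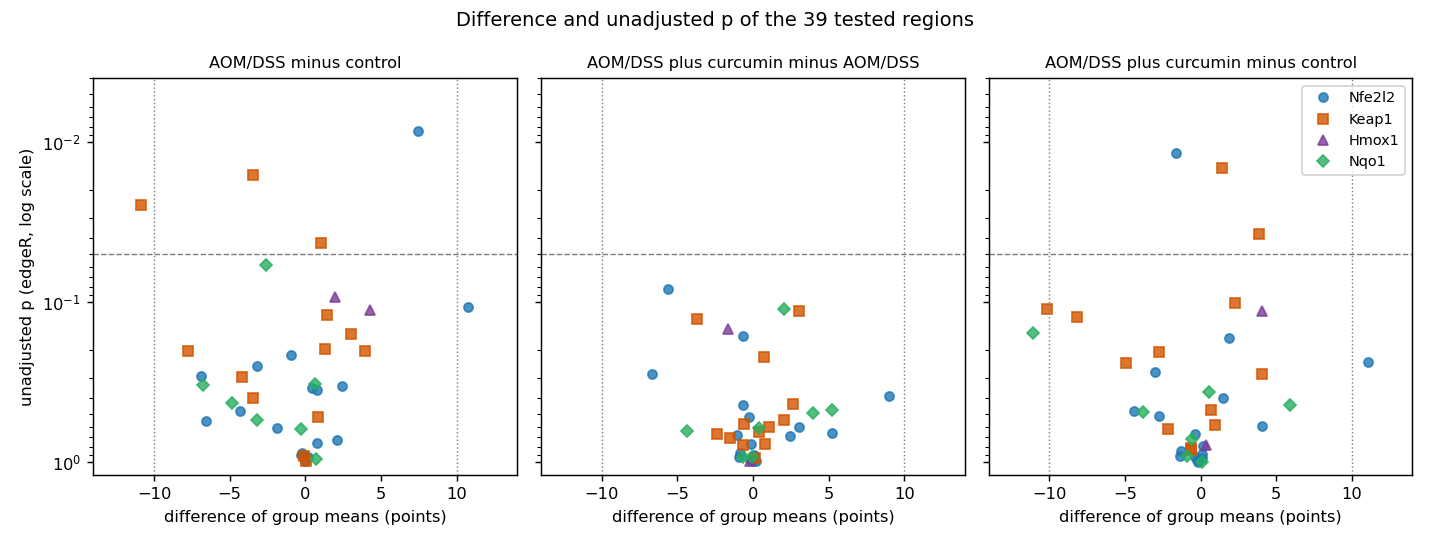
Unadjusted p of edgeR's quasi-likelihood test (log scale, smaller upward) against the difference of group means (points) for the 39 tested regions in the 3 comparisons, with symbols by gene. Vertical dotted lines stand at 10 points either way and the dashed line at an edgeR p of 0.05. In AOM/DSS minus control 4 regions lay above the dashed line, 1 of them beyond 10 points, in curcumin minus AOM/DSS 0, and in curcumin minus control 3, all within 10 points.

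Replicates also differed from each other, and their gaps were not set against the group differences region by region. Over the 39 members the 2 libraries of a group differed on average by 3.27 points with curcumin, 3.45 points in AOM/DSS and 4.24 points in control, against 4.58, 4.77 and 4.92 points over all tested regions. In the island regions these gaps were 2.64, 1.01 and 2.41 points, and in the body regions 3.90, 4.73 and 6.42 points. By gene, the island gap in control ran from 0.268 points at Hmox1 to 4.60 points at Keap1. None of the 7 island regions, and none of the 3 dense promoter regions of Nqo1, differed by 10 points between any 2 groups. Other genes of the pathway, among them Gclc, Gclm, Txnrd1, Srxn1 and Slc7a11, were not placed in mm9 and not analysed here.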

How the data were processed

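Bisulfite-treated DNA of 6 libraries was captured, per the labels' protocols, with Agilent's SureSelectXT kit for mouse Methyl-Seq. Per the submitters' processing notes, the build was mm9 and the tools were R 3.4.0, Bismark 0.15.0 and ChIPseeker 1.10.3, without the role of each. The deposited values are counts, namely CpGs, calls and methylated calls per region, in 209687 regions shared by all files, with no value under 20 calls. The sources used here do not give how regions were drawn, if duplicates were dropped, or if starts count from 0 or 1.

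Levels were 100 times methylated calls over calls, and gene-level values summed the calls of a gene's regions. edgeR 4.0.16 in R 4.3.3 fitted methylated and unmethylated counts of 179922 regions with a value in all 6 libraries, at a minimum of 10 calls, with a coefficient per library for coverage and per group for methylation. P-values were adjusted over all of these by Benjamini-Hochberg, and calls had an adjusted p below 0.05 with means 10 points apart. The fits were tested on simulated counts in which only regions of intermediate level were shifted. That test does not cover shifts at levels near 0%. Alternatives were limma 3.58.1 on log2((methylated + 1)/(unmethylated + 1)), a moderated quasi-binomial model, other limits on calls, difference, density and promoter side, only the 4 libraries compared, a replicate block and each library left out. Levels, exact tests and intervals used Python 3.11.15, numpy 2.4.6, pandas 2.3.3 and scipy 1.17.1. Named regions were, per gene, the island region with the most calls, the highest and lowest mean level and, per comparison, the regions with p under 0.05 and 10 points or otherwise the smallest p; others are named after their values were seen. Strands and the distance to neighbouring genes came from RefSeq in GRCm38.p6. The members and lists were chosen with earlier results of these data known.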

Additional observations from a re-analysis of the deposited data

How the results depend on the processing

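No member was called after adjustment under any alternative, and the smallest adjusted p over all settings was 0.560 for AOM/DSS against control, 0.812 for curcumin against AOM/DSS and 0.965 for curcumin against control. The count of members with an unadjusted p under 0.05 and 10 points, 1 for AOM/DSS against control, was 0 with at least 50 calls per library, 0 at 20 points, 4 with no minimum difference and 0 to 2 with a library left out. For curcumin against control the count of 0 became 3 with no minimum difference and 0 to 2 with a library left out; the 2 arose without control replicate 1, at Keap1. The replicate block, with libraries paired by number, changed none of these counts (0 calls, and 1, 0 and 0 members with p under 0.05 and 10 points). Gaps between replicates 0 and 1 correlated at 0.0075 to 0.0548 between groups across regions, and the labels do not say what the number marks.

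Of 63 level differences recomputed over gene parts, 49 kept their sign and 14 did not. Some of the 49 could not differ or were repeats. The Hmox1 island level is 1 region, so its unweighted mean is the same value, and its settings with no density limit and with a limit of 4 took the same regions. The cause of a turned sign was not tested beyond the change each setting makes. For AOM/DSS minus control, the Nfe2l2 body (0.572 points) became -0.000920 as an unweighted mean of regions and -0.056 with a promoter side of 4000 bases, the Keap1 island level (-3.02) became 0.792 with 4000 bases, which drops its most methylated region, and the Keap1 body (2.08) became -2.25 unweighted and -1.02 without the last 3000 bases. For curcumin minus AOM/DSS, the Nfe2l2 body (-2.35) became 0.700 unweighted and the Keap1 island level (0.225) became -1.52 with at least 50 calls. For curcumin minus control, the Nfe2l2 island level (0.128) became -0.277 with no density limit, the Nfe2l2 body (-1.78) 0.699 unweighted, the Keap1 island level (-2.80) 1.33 with 4000 bases, the Keap1 body (0.117) -1.87 with 50 calls, -2.47 unweighted and -1.65 without the last 3000 bases, and the Nqo1 body (-1.65) 0.390 unweighted. The density limit of 4 and the body without its last 3000 bases were chosen after seeing the data.

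With a library left out, 16 of 72 differences changed sign. For AOM/DSS minus control the range was -3.29 to 4.44 points for the Nfe2l2 body, -6.40 to 0.361 for the Keap1 island level, -0.836 to 5.0 for the Keap1 body and -8.41 to 0.325 for the Nqo1 body. For curcumin minus AOM/DSS it was -6.22 to 1.51 for the Nfe2l2 body, -2.39 to 2.83 for the Keap1 island level, -4.88 to 0.953 for the Keap1 body and -1.98 to 6.76 for the Nqo1 body. For curcumin minus control it was -0.224 to 0.481 for the Nfe2l2 island level, -6.18 to 0.586 for the Keap1 island level, -0.029 to 0.264 for the Keap1 body, -0.399 to 1.12 for the Hmox1 island level and -5.15 to 1.84 for the Nqo1 body. Nothing turned the sign of AOM/DSS minus control at the Nfe2l2 and Hmox1 island levels, 0.119 to 0.824 and 1.32 to 2.64 points with a library left out. The same held for curcumin minus AOM/DSS at these levels, -0.602 to -0.084 and -2.38 to -0.857 points. With no density limit, however, AOM/DSS minus control at Nfe2l2 was only 0.047 points. The Hmox1 island level rested on 1 to 6 methylated calls per library.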

Other observations

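Among the 3 members that lacked a value in at least 1 library, the Nfe2l2 region chr2:75543840-75543924 with 3 CpGs, inside the promoter side, had 43.2% and 18.5% in the AOM/DSS plus curcumin libraries, 17.9% and 18.2% in the AOM/DSS libraries, and 28.6% in control replicate 0, from 22 to 37 calls. It was above every tested promoter-side region of that gene in each library with a value, and its neighbours on either side reached at most 11.5% and 2.74%. The Nqo1 region chr8:109929514-109929640 had 0% of 20 calls and 19.0% of 21 calls in the curcumin libraries and 8% of 25 calls in control replicate 1. The Nqo1 region chr8:109923608-109923665 had a value in AOM/DSS replicate 1 only, 82.6% of 23 calls.

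Among the tested members, a body region of Keap1, chr9:21039760-21040028 with 5 CpGs, was chosen after its values were seen because the 3 groups did not overlap. It had 16.4% and 16.9% in the AOM/DSS plus curcumin libraries, 19.6% and 18.5% in the AOM/DSS libraries, and 29.1% and 24.6% in the control libraries. Curcumin minus control was -10.2 points, with an unadjusted p of 0.111 and an adjusted p of 1 in edgeR, and AOM/DSS minus control was -7.78 points, with an unadjusted p of 0.202.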
